A study of Mus musculus with 4 samples.

Results

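A set of 10 iron and heme handling genes were followed in bone marrow-derived dendritic cells (BMDCs) that lack GOLPH2, a Golgi membrane protein encoded by Golm1. The genes were chosen by name as Slc40a1, Spic, Hamp2, Hmox1, Tfrc, Fth1, Ftl1, Slc11a1, Slc11a2 and Lcn2, because the first 3 of these are low in the knockout libraries. All 10 were listed in both deposited tables, among 15881 genes listed in at least 1 of them. Their values in these tables are therefore a description and were given no test.

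The study compared C57BL/6 mice of 8 weeks, either wild type (WT) or GOLPH2-/- (KO). BMDCs of both genotypes were sampled without stimulation and after priming with IFN-gamma (16 h) followed by the bacterial product LPS (4 h). Each of the 4 groups is 1 library, so no difference has a replicate check. Pooling of mice and the part of Golm1 that the knockout removes were not given in the sources used here. Values come from 1 deposited table of KO over WT ratios for each state, which lists 15394 genes (unstimulated) or 15310 genes (stimulated), and values per library were not analysed here. Ratios below are log2 of KO over WT, centred on the ratio at which the authors' own test gives no difference, and the value after ± is a counting standard error (SE) derived from their p-values. This error covers the sampling of reads, and neither the spread between cultures nor the error of the centring. Intervals are 95% counting intervals. A ratio is said to have passed where the authors' p, adjusted by Benjamini-Hochberg, was under 0.001 over all genes of the table, which compares 2 libraries and not 2 conditions. Golm1 itself was at −2.09 with an SE of at most 0.098 in unstimulated cells and −2.00 ± 0.10 in stimulated cells, and 23.5% of the WT level remained in unstimulated cells.

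Iron enters most cells bound to transferrin through the transferrin receptor, is stored inside ferritin, and leaves through ferroportin, the only known iron exporter of animal cells. The peptide hormone hepcidin binds ferroportin and causes its removal from the membrane. Heme from engulfed red cells is opened by heme oxygenase, which frees its iron. Macrophages of the splenic red pulp, whose development needs the transcription factor Spi-C, recycle most of this iron, and myeloid cells withhold iron from microbes during inflammation. Much of the control over ferritin, ferroportin and the transferrin receptor acts on their mRNAs, through a hairpin called the iron-responsive element to which the iron regulatory proteins bind when iron is scarce. Bound in front of the coding sequence it holds back translation, and bound behind the coding sequence it protects the mRNA from decay.

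The elements are shown because iron acts through them on some of these mRNAs. Spliced transcripts of the GENCODE M21 basic set (GRCm38) were searched on the sense strand for a C, 5 bases, the loop CAGTGN and 5 bases, where both runs of 5 bases pair with each other and G-T pairs are allowed. Capitals mark the loop, letters are DNA, and each element is 17 bases long. The ferritin heavy chain, ferritin light chain and ferroportin transcripts each held 1 element in the 5′ UTR.
Fth1 (chr19:9982738-9982754, plus strand): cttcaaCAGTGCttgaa
Ftl1 (chr7:45459785-45459801, minus strand): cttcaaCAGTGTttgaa
Slc40a1 (chr1:45925471-45925487, minus strand): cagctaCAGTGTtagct
The transferrin receptor transcript held 4 elements in the 3′ UTR.
Tfrc (chr16:32631225-32631241, plus strand): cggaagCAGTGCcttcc
Tfrc (chr16:32631604-32631620, plus strand): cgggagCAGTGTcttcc
Tfrc (chr16:32631669-32631685, plus strand): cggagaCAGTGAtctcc
Tfrc (chr16:32631716-32631732, plus strand): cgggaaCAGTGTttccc
Such an element was found in the 5′ UTR of 28 of 20544 genes (0.136%) and in the 3′ UTR of 127 of 20937 genes (0.607%). The search found no element of this strict form in the UTRs of the other 6 genes. Looser forms were not searched, so these genes, Slc11a2 among them, are not shown to lack an element. Of the genes where the strict form was found, Slc40a1, whose product exports iron, was the one with a large ratio in unstimulated cells. The others, Fth1, Ftl1 and Tfrc, had ratios between −0.09 and 0.14 in both states.

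In unstimulated cells Slc40a1 and Spic were the lowest of the 10 genes, Hmox1, Lcn2 and Hamp2 were lower by less than 1.5-fold, and the ferritin, transferrin receptor and metal transporter genes were within 1.1-fold. In stimulated cells Hamp2 became the lowest, at 30.8% of the WT level, while Slc40a1 and Spic lay closer to WT. The chart of KO over WT ratios by gene shows these values. In unstimulated cells 5 of the 10 genes passed lower and 2 higher, beside 4.27% and 4.7% of all genes. At 1.5-fold or more, 2 were lower and 0 higher, beside 0.299% and 0.409% of all genes (0.708% in either direction). In stimulated cells 4 passed lower and 2 higher, beside 6.54% and 5.36% of all genes, and at 1.5-fold or more 1 was lower and 0 higher, beside 0.594% and 0.425% (1.02% in either direction). Since 3 genes were picked for being low, nothing is read from these counts. The median ratio of the 10 genes was −0.18 in unstimulated and −0.15 in stimulated cells, and that of all genes 0.0013 and 0.0052.

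**Figure D1:**
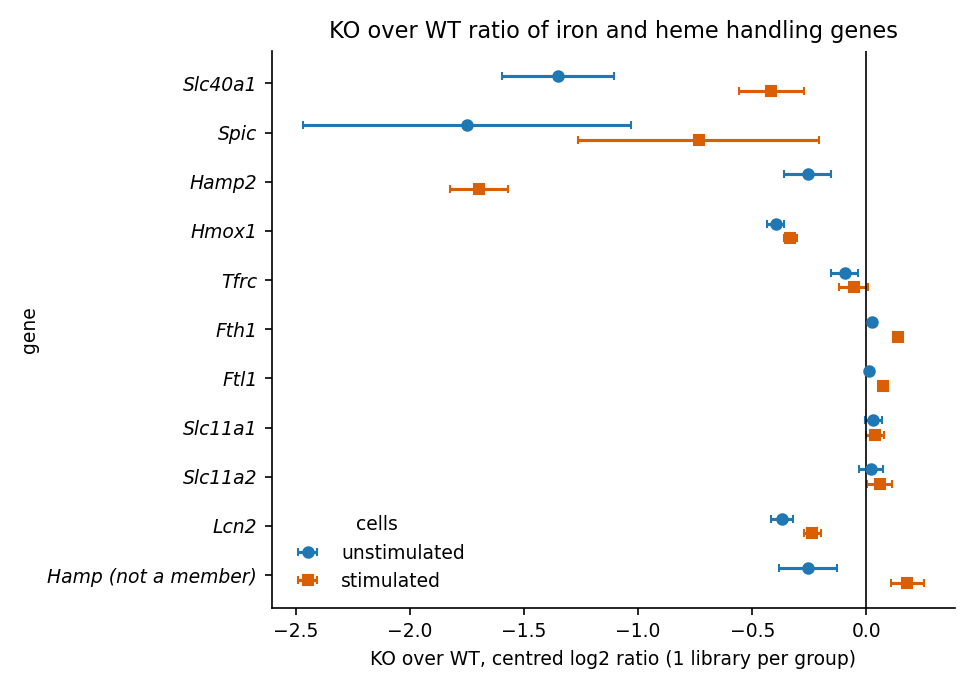
KO over WT ratio (centred log2 scale, horizontal axis) of the 10 iron and heme genes and of Hamp (vertical axis) in unstimulated (circles) and stimulated (squares) cells, with bars for 95% counting intervals. Slc40a1 and Spic lie farthest left in unstimulated cells (−1.35 and −1.75), and Hamp2 does so in stimulated cells (−1.70).

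Slc40a1 (chromosome 1, 45908070 to 45926532, GRCm38, protein-coding) encodes ferroportin. Its ratio was −1.35 ± 0.13 in unstimulated cells, which leaves 39.2% of the WT level (interval 33.1 to 46.5%). In stimulated cells the ratio was −0.42 ± 0.073, or 75.0% of WT (67.9 to 82.8%). The gene passed lower in both states, and the difference between the states was 0.93 ± 0.15, which is 6.43 times its counting error. The precision behind these ratios equals that of 264 and 782 reads in each library. In bulk libraries, fewer cells of a kind and less RNA per cell cannot be told apart, here and for every gene below.

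Spic (chromosome 10, 88675269 to 88683023, GRCm38, protein-coding) encodes Spi-C, an Ets-family transcription factor that heme induces in monocytes. Its ratio was −1.75 ± 0.37 in unstimulated cells, or 29.7% of WT, and it passed. The ratio of −0.73 ± 0.27 in stimulated cells did not pass, and its interval of 41.7 to 86.7% of WT is wide. These ratios have the precision of 31.0 and 57.4 reads in each library, the lowest among the 10 genes. The difference between the states was 1.02 ± 0.45, or 2.23 counting errors. Slc40a1 and Spic differed from each other by 1.03 counting errors in unstimulated and 1.14 in stimulated cells, so their ratios could not be told apart at this depth in either state.

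The other listed markers of iron-recycling macrophages did not all lie on one side. Of 9 markers, 8 were listed in the tables, and Slc40a1, Spic and Hmox1 are among them, so the list is not independent of the choice of genes. In unstimulated cells Emr1, which encodes the macrophage antigen F4/80, passed higher at 0.13 ± 0.011. The adhesion molecule gene Vcam1 was at −0.38 ± 0.099, the receptor gene Treml4 at −0.46 ± 0.36, the integrin gene Itgad at −0.03 ± 0.40 and the lipid-sensing nuclear receptor gene Pparg at 0.02 ± 0.13, and none of these 4 passed. In stimulated cells Vcam1 passed lower at −0.23 ± 0.049 and Emr1 again passed higher at 0.13 ± 0.010.

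Several markers of other cells passed as well, and their part in the ratios of Slc40a1 and Spic was not tested. Over all genes, 4.7% passed higher and 4.27% lower in unstimulated cells, and 5.36% and 6.54% did in stimulated cells. Of 10 macrophage and monocyte markers 4 passed higher and 3 lower in each state, with a range from −0.36 (Marco) to 0.94 (C1qb) in stimulated cells. Of 6 stromal markers 3 passed higher in unstimulated and 5 in stimulated cells, with medians of 0.96 and 2.38, and 1, Pdgfrb, passed lower in stimulated cells. Col3a1 was the highest of them, at 3.06 ± 0.58 in unstimulated and 6.27 ± 0.40 in stimulated cells. Of 8 erythroid markers 2 were listed for unstimulated and 3 for stimulated cells, and 0 passed. Of 8 dendritic cell markers 7 were in the tables, and 5 passed higher in unstimulated and 4 in stimulated cells, with none lower. The defining genes Itgax (0.32 ± 0.015), H2-Ab1 (0.09 ± 0.011) and Zbtb46 (−0.01 ± 0.075) were all measured in unstimulated cells. Levels per library were not analysed here, so no summed marker level can be given.

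By distance between the ratios of both states, the genes most like Slc40a1 were sought among 11066 genes with a counting SE of at most 0.3 in each table. The 5 nearest were Rnf144a, Mfsd7c, Tlr2, Lrrc16a and Stap1, at distances of 0.29 to 0.49 on the log2 scale. The SE limit left out Spic and the hepcidin-control gene Bmp2, so these were not ranked. Bmp2 had ratios of −1.64 ± 0.37 in unstimulated and −0.38 ± 0.23 in stimulated cells. Mfsd7c, the older symbol of Flvcr2, encodes a membrane transporter first linked to heme uptake. Its ratios were −0.98 ± 0.20 in unstimulated cells, which passed, and −0.41 ± 0.16 in stimulated cells, which did not. This likeness rests on 2 ratios per gene.

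**Figure D2:**
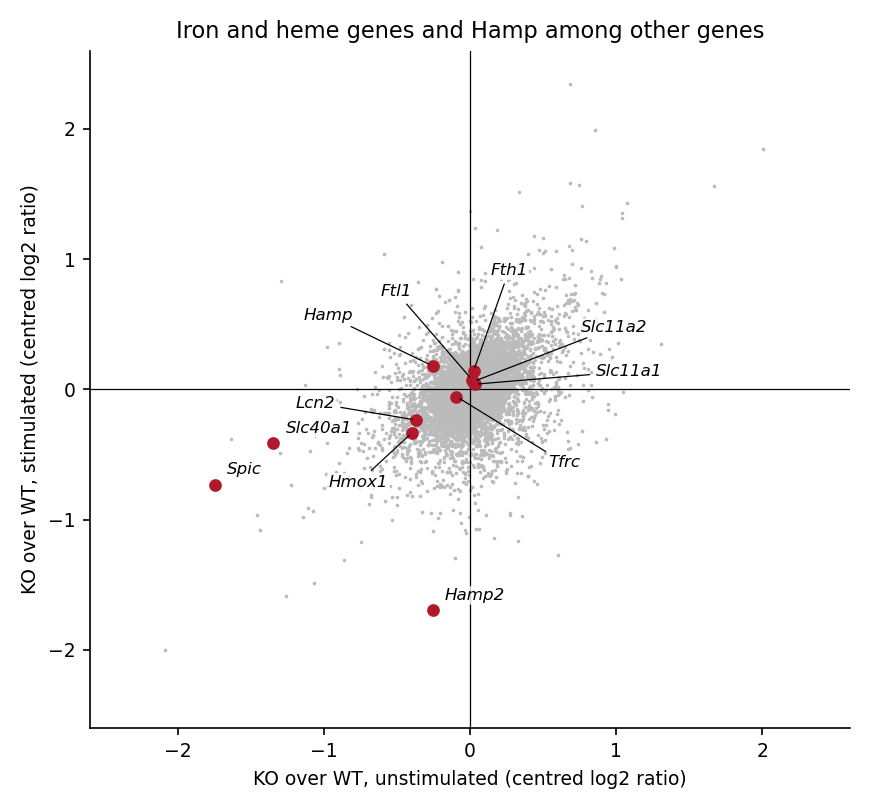
KO over WT ratio in unstimulated (horizontal axis) and stimulated (vertical axis) cells, both centred log2 ratios, for the 10 iron and heme genes and Hamp (red) and for other genes with a counting SE of at most 0.4 in both tables (grey); 5 genes lie outside the axes. Spic and Slc40a1 stand to the left, Hamp2 stands below, and Fth1, Ftl1, Slc11a1, Slc11a2 and Tfrc lie near the origin.

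Hepcidin is a single gene in humans, whereas mice carry Hamp and the neighbouring copy Hamp2. Hamp encodes the peptide that acts on ferroportin, and Hamp2 lacks this activity in mice that overexpress it. Hamp2 (chromosome 7, 30922372 to 30924181, GRCm38, protein-coding) had a ratio of −0.26 ± 0.053 in unstimulated cells, or 83.7% of WT, and passed. Without centring, the authors' deposited table gives −0.066 for it in unstimulated cells. In stimulated cells the ratio was −1.70 with an SE of at most 0.065, or 30.8% of WT (28.2 to 33.7%), a level 3.24-fold lower in the KO library. The difference between the states was −1.44 with an SE of at most 0.084, so it was at least 17.2 times its counting error, and it had the sign opposite to that of Slc40a1 and Spic.

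Hamp (chromosome 7, 30942368 to 30944029), which was not among the 10 genes, had a ratio like that of Hamp2 in unstimulated cells, at −0.26 ± 0.065. In stimulated cells it passed higher, at 0.18 ± 0.037. The ratios of the copies differed by −0.0011 ± 0.084 in unstimulated and by −1.88, with an SE of at most 0.075, in stimulated cells. The copies thus had like ratios before stimulation and unlike ones after it.

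The promoters of both copies are shown because the copies are similar in sequence and had ratios of opposite sign in stimulated cells. Each line gives the 250 bases before the RefSeq gene start (GRCm38.p6). Capitals mark 2 motifs searched on both strands, GGCGCC, the core of the element through which bone morphogenetic proteins act on hepcidin, and TTCNNNGAA, the site form of STAT factors.
Hamp (chr7:30944030-30944279, minus strand): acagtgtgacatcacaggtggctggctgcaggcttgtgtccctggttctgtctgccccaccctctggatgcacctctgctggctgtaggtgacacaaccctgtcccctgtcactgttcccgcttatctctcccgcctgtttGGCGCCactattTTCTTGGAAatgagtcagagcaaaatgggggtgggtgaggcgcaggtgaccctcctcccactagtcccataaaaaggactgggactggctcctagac
Hamp2 (chr7:30924182-30924431, minus strand): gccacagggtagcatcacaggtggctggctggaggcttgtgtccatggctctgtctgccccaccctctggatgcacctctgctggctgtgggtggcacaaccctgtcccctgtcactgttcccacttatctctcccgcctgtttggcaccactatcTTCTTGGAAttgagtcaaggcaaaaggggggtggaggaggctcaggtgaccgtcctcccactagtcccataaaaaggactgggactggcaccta
Over 253 aligned positions the 2 windows were 89.7% identical. TTCNNNGAA was found in both, starting 97 bases before the gene start in Hamp and 94 bases before it in Hamp2. GGCGCC was found in Hamp only, and the aligned hexamer of Hamp2 carries the substitution G4A, counted from 1 at the 5′ end of the hexamer. Of 32851 RefSeq promoter windows of this length 9.59% held GGCGCC and 7.02% held TTCNNNGAA, and the 2 motifs do not overlap here. These matches describe the letters and show no binding, and their part in the ratios was not tested. The transcripts of the copies were 88.8% identical over 437 aligned positions, with a longest identical run of 87 bases, so reads from one copy could have been counted for the other. The gene model Gm44662 overlaps both on the opposite strand, and which strand the counting used was not given in the sources used here.

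Of the other genes that control hepcidin, 7 with Hamp included were listed beside Hamp2. In unstimulated cells 6 of them were in the table, of which 2 passed higher and 2 lower, beside 4.7% and 4.27% of all genes. Bmp2, which encodes a ligand that induces hepcidin in the liver, was at −1.64 ± 0.37 and passed, with a precision of 29.8 reads in each library. Hfe, whose loss causes iron overload, passed higher at 0.30 ± 0.072, and so did the convertase gene Furin at 0.20 ± 0.017. In stimulated cells Bmp2 was at −0.38 ± 0.23 and Hfe at 0.22 ± 0.095, and neither passed, while Furin passed higher at 0.12 ± 0.013.

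Hmox1 (chromosome 8, 75093618 to 75100593, GRCm38, protein-coding) encodes the inducible heme oxygenase. It was at 75.9% of WT in unstimulated cells, a ratio of −0.40 with an SE of at most 0.019. The authors' deposited table, not centred, has it at −0.21 there. In stimulated cells it was at 79.4% of WT, a ratio of −0.33 ± 0.014. Both passed, and the states differed by 0.06 with an SE of at most 0.023. The constitutive heme oxygenase gene Hmox2 (0.11 ± 0.061 and −0.07 ± 0.064) and the biliverdin reductase genes Blvra (0.07 ± 0.068 and 0.14 ± 0.075) and Blvrb (−0.03 ± 0.035 and −0.03 ± 0.034), whose products complete heme breakdown, did not pass in either state. Nfe2l2 encodes NRF2, a known activator of Hmox1, and passed lower at −0.51 ± 0.030 in unstimulated and −0.22 ± 0.028 in stimulated cells. Bach1, which encodes a heme-binding repressor of Hmox1, did not pass (−0.03 ± 0.042 and 0.05 ± 0.045).

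Fth1 (chromosome 19, 9980600 to 9985111) and Ftl1 (chromosome 7, 45457944 to 45459886) encode the heavy and light chains of ferritin, the iron storage shell. Fth1 was at 101.7% of WT in unstimulated cells (0.02 ± 0.0020) and at 110.1% in stimulated cells (0.14, SE at most 0.0053). Ftl1 was at 100.9% (0.01 ± 0.0030) and 105.3% (0.07 ± 0.0034). All 4 ratios passed on the precision of very many reads, although 3 of them are, after centring, differences of about 5% or less. In the authors' deposited table, not centred, the unstimulated ratios are 0.21 for Fth1 and 0.20 for Ftl1. Fth1 and Ftl1 differed by 0.07, with an SE of at most 0.0063, in stimulated cells. GENCODE lists 5 pseudogenes named after the heavy and 2 after the light chain, so the authors' counting could have split ferritin reads. Ncoa4, which encodes the receptor that delivers ferritin to lysosomes, passed lower at −0.11 ± 0.027 in unstimulated cells and was at −0.09 ± 0.025 in stimulated cells. The iron chaperone gene Pcbp1 passed higher in stimulated cells at 0.09 ± 0.022.

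Of the 10 genes, Tfrc, Slc11a2 and Slc11a1 did not pass in either state. Tfrc (chromosome 16, 32608896 to 32632794), the transferrin receptor gene, was at −0.09 ± 0.030 (93.7% of WT) and −0.06 ± 0.032 (96.2%) in unstimulated and stimulated cells. The sign of its unstimulated ratio flips to 0.10 in the authors' deposited table, whose ratios are not centred. Slc11a2 (chromosome 15, 100387898 to 100424209), which encodes the transporter DMT1 that moves iron out of endosomes, was at 0.02 ± 0.026 and 0.06 ± 0.028. Slc11a1 (chromosome 1, 74375014 to 74386057), which encodes the related phagosome transporter NRAMP1, was at 0.03 ± 0.019 and 0.04 ± 0.020. C57BL/6 mice carry a loss-of-function allele of Slc11a1. After centring, the intervals of both transporter genes all lie between 97.9 and 108.2% of WT. Their ratios differed from each other by less than 1 counting error in each state. Not centred, their unstimulated ratios in the authors' deposited table are 0.22 (Slc11a1) and 0.21 (Slc11a2). Gm5475, which overlaps Slc11a2 on the opposite strand, is also listed in the tables.

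Lcn2 (chromosome 2, 32384637 to 32387739) encodes lipocalin-2, which binds bacterial siderophores and so keeps iron from microbes. It passed lower in both states, at −0.37 ± 0.025 (77.5% of WT) and −0.24 ± 0.019 (84.9%). Its unstimulated value in the authors' deposited table, before centring, is −0.18. Lcn2 is also a neutrophil granule gene. Of 11 listed neutrophil markers 9 were in the unstimulated table. There Lcn2 and Mmp8 (−0.25 ± 0.035) passed lower and none passed higher, beside 4.27% and 4.7% of all genes. Of the 7 listed for stimulated cells, Lcn2 alone passed, lower, beside 6.54% of all genes. Of the markers with smaller counting errors, S100a8 (−0.59 ± 0.16) and Mmp9 (−0.13 ± 0.056) did not pass in unstimulated cells. In stimulated cells Mmp8 (0.07 ± 0.043) and Mmp9 (0.16 ± 0.055) were above 0 and S100a8 (−0.18 ± 0.13) was below, without passing. Granule genes such as Camp (−0.09 ± 0.54), Ltf (−1.78 ± 1.55) and Mpo (−0.19 ± 0.83) had large counting errors in unstimulated cells, that of Ltf being equal to that of 1.74 reads in each library. S100a9 (1.39 ± 1.55), the 1 listed marker above 0 there, was no more precise than Ltf and did not pass. The part of neutrophils in the ratio of Lcn2 was not tested.

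The wider pathway was described with 77 genes in 12 roles, the 10 genes included. Of these, 71 were listed for unstimulated and 72 for stimulated cells. In unstimulated cells 6 passed higher and 14 lower, which is 28.2% in either direction beside 8.96% of all genes; with the ratios as deposited, the split was 9 higher and 11 lower. In stimulated cells 11 passed higher and 9 lower, or 27.8% beside 11.9%. Without the 10 genes, 4 of 61 passed higher and 9 lower in unstimulated cells, beside 4.7% and 4.27% of all genes. For stimulated cells, 9 of 62 passed higher and 5 lower, beside 5.36% and 6.54%. The median ratios of the list without the 10 genes were −0.011 and 0.050. The wider list had a lower median counting error than all genes in unstimulated cells (0.061 against 0.088), and genes of low counting error pass more readily.

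At 1.5-fold or more, 4 of the 71 genes passed lower in unstimulated cells, namely Slc40a1, Spic, Bmp2 and Mfsd7c, and 0 higher, beside 0.299% and 0.409% of all genes. In stimulated cells 2 of the 72 genes passed lower, Hamp2 and Hp, and Slc39a8 passed higher, beside 0.594% and 0.425% of all genes. Hp, which encodes the hemoglobin-binding plasma protein haptoglobin, was at −0.60 ± 0.083 in stimulated and −0.52 ± 0.10 in unstimulated cells and passed in both. Slc39a8, which encodes a transporter for zinc, manganese and iron, was at 0.59 ± 0.10 in stimulated cells, at the edge of the threshold, and at 0.41 ± 0.11 in unstimulated cells, where it did not pass. No gene of the list passed 1.5-fold in the same direction in both states, while 14 genes of all 14823 in both tables did so lower (0.0944%) and 26 higher (0.175%). Among the 10 genes, Slc40a1 and Spic are marked as differentially expressed for unstimulated cells in the authors' deposited table, beside 161 marked genes in all. For stimulated cells the authors' deposited table marks 159 genes, Hamp2 among them.

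At any size, 7 genes of the wider list passed lower in both states, namely Slc40a1, Hamp2, Hmox1, Hp, Slc25a37, Lcn2 and Nfe2l2. Slc25a37 encodes mitoferrin, which carries iron into mitochondria, and was at −0.45 ± 0.055 and −0.40 ± 0.042. The 4 genes that passed higher in both states were Fth1, Ftl1, Furin and Hif1a, the last encoding an oxygen-regulated transcription factor (0.14 ± 0.023 and 0.12 ± 0.020). Over all genes shared by the tables, 2.23% passed lower and 2.96% higher in both states.

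The remaining roles hold few genes each, so nothing is read from their counts. Over all genes, 8.96% passed in unstimulated and 11.9% in stimulated cells. Of the heme synthesis genes, 0 of 9 passed in unstimulated cells and 22.2% in stimulated cells. In stimulated cells Alas1, the rate-limiting enzyme of heme synthesis outside red cells, passed higher at 0.15 ± 0.012, and Cpox at 0.25 ± 0.060. Alas2, the enzyme form of red cell precursors, had ratios of 1.22 ± 0.92 and 2.21 ± 0.99 that did not pass. Of the 12 genes of mitochondrial iron and iron-sulfur clusters, the scaffold gene Iscu passed higher in stimulated cells at 0.20 ± 0.034, beside the lower Slc25a37. The iron-sensing genes Aco1, Ireb2 and Fbxl5, whose products read the cellular iron level, did not pass in either state, and their ratios all lay between −0.06 and 0.08. Among the uptake genes the transferrin gene Trf passed lower in unstimulated cells (−0.17 ± 0.020) and Slc39a14 in stimulated cells (−0.31 ± 0.048). Among genes of heme transport, the lysosomal heme exporter gene Slc48a1 passed higher in stimulated cells (0.08 ± 0.020). The lysosomal channel gene Mcoln1 passed lower in unstimulated cells (−0.18 ± 0.044). The ferroxidase genes Heph (2.03 ± 0.80 and 1.04 ± 0.99) and Cp (−0.22 ± 0.15 and 0.14 ± 0.15), which act beside ferroportin, did not pass.

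**Figure D3:**
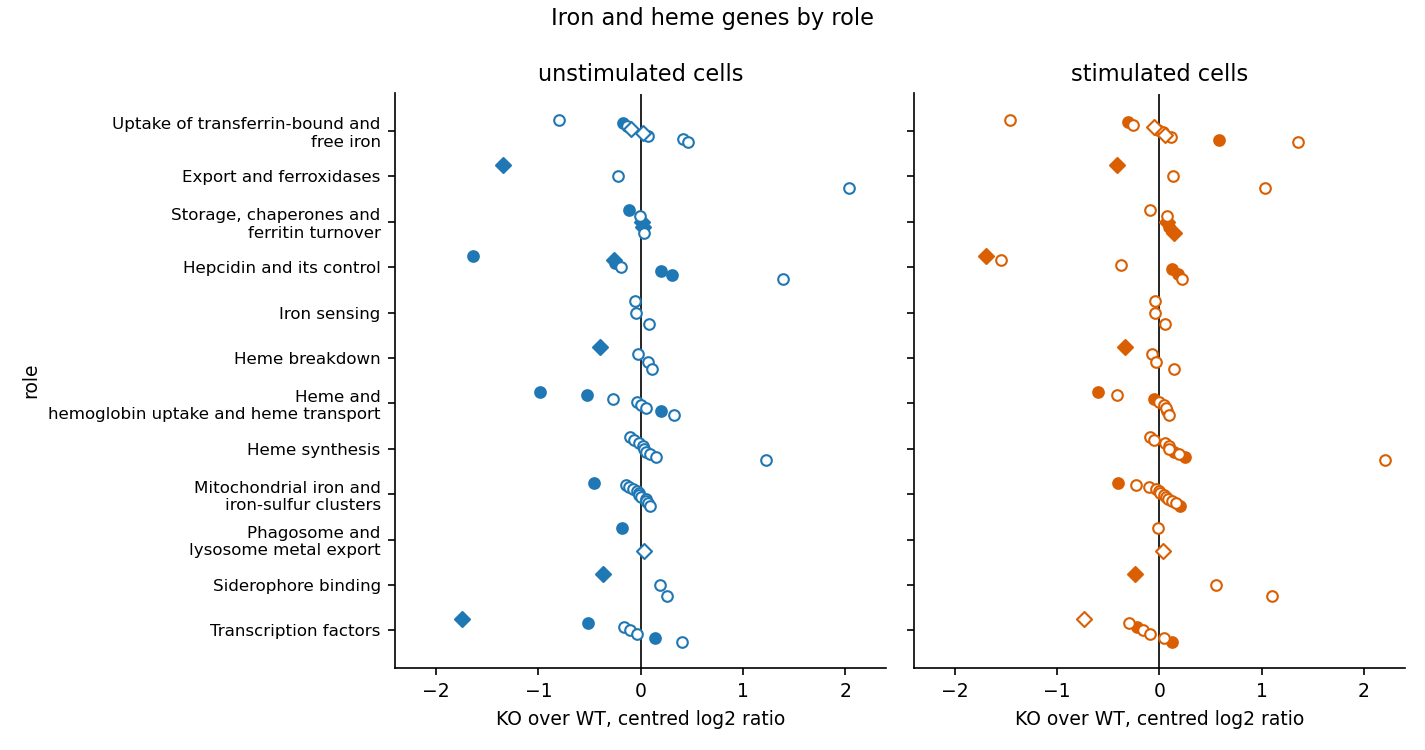
KO over WT ratio (centred log2 scale, horizontal axis) of the wider iron and heme list by role (vertical axis) in unstimulated (left) and stimulated (right) cells, with 1 symbol per gene; diamonds are the 10 genes, filled symbols passed and open symbols did not. Open symbols far from 0, such as Heph at 2.03 in unstimulated cells, have large counting errors.

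The difference between the states, stimulated minus unstimulated ratio, could not be tested with 1 library per group and is described by its values. It was positive for 9 of the 10 genes and negative for Hamp2. Spic (1.02) and Slc40a1 (0.93) had the largest positive differences, and Lcn2 (0.13 ± 0.031), Fth1 (0.12, SE at most 0.0057) and Ftl1 (0.06 ± 0.0045) small ones beyond 4 counting errors. Tfrc (0.04 ± 0.044), Slc11a2 (0.04 ± 0.038) and Slc11a1 (0.01 ± 0.028) had differences of about 1 counting error or less. With the ratios as deposited, all differences shift down by 0.23, which turns those of Hmox1, Lcn2, Fth1, Ftl1, Tfrc, Slc11a1 and Slc11a2 negative. The signs of these 7 small differences thus rest on the centring, whereas those of Slc40a1, Spic and Hamp2 do not.

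**Figure D4:**
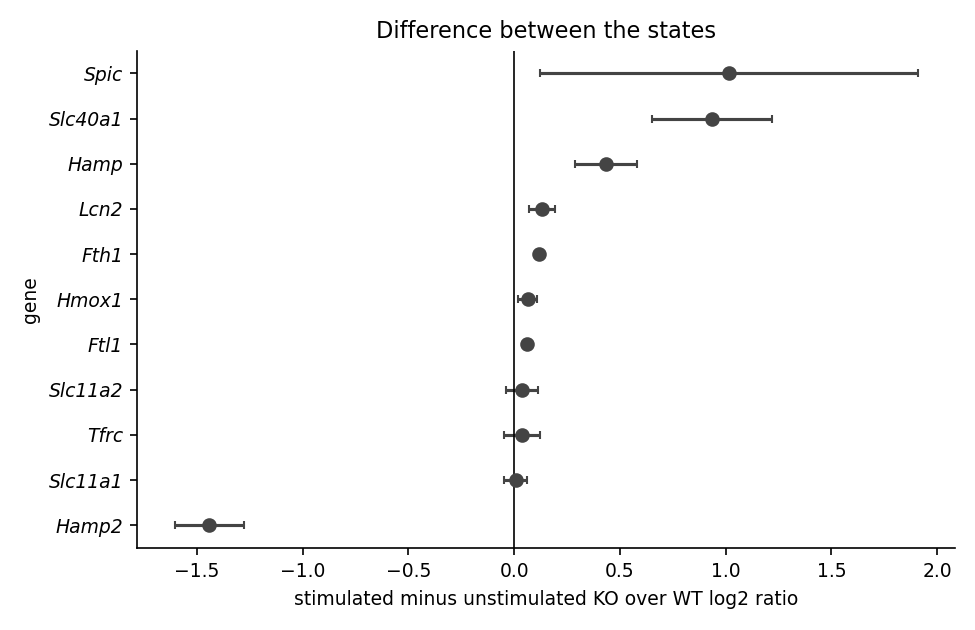
Stimulated minus unstimulated KO over WT log2 ratio (horizontal axis) of the 10 genes and Hamp (vertical axis), with bars for 95% counting intervals. Spic and Slc40a1 lie near 1, Hamp2 lies at −1.44, and the other genes lie between 0.01 and 0.44.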

How the data were processed

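Messenger RNA of 4 BMDC libraries, 1 per group by the sample titles, was sequenced with a strand-specific TruSeq preparation, per the labels' protocols. FastQC 0.10.1, HTSeq 0.6.0 and build mm10 are named per the submitters' processing notes; the aligner, the annotation, the scaling and the kind of test were not given in the sources used here. Each table holds KO over WT log2 fold changes per gene, and −log10 p, as deposited by the authors, the latter limited at 100 (unstimulated) and 150 (stimulated). Depth per library is unknown.

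Each log2 ratio was reduced by the median ratio of the 5 genes whose deposited p lies closest to 1 (0.19 and −0.036; the median gene lies at 0.19 and −0.031). The counting SE is the centred ratio divided by the normal deviate of the deposited p, and only an upper limit where the deposited −log10 p is at its limit (51 and 50 genes). Its median was 0.088 and 0.092, and its highest value, 2.04 in both tables, is that of 1 read in each library. Given read numbers are those that would yield the SE if both libraries held equally many reads.

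A gene passed where the Benjamini-Hochberg adjusted p was under 0.001. The members and lists were chosen with earlier results of these data known. Named were the 10 members, Golm1, genes of the wider list past 1.5-fold, up to 4 others per role with the largest passing ratio, and the 5 genes most like Slc40a1; listed genes given as not passing, and markers, were added for their role. Older symbols were matched through RefSeq synonyms (GRCm38.p6), which also gave positions and promoters (7 of 10 members and Hamp matched a promoter). Alternatives were the ratios as deposited, centring on the median gene, an adjusted p under 0.05 and a size of 2-fold. The calculation was run on simulated data whose p-values came from the same normal formula that it inverts. This checks the code and not the form of the authors' test. Python 3.11.15, pandas 2.3.3, SciPy 1.17.1 and Biopython 1.88 were used.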

Additional observations from a re-analysis of the deposited data

Results flagged for a closer look

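None of these differences could be tested with 1 library per group. Of the 70 wider-list genes in both tables, 2 passed in opposite directions in the 2 states, beside 41 of all 14823 shared genes. Hamp was lower in unstimulated (−0.26) and higher in stimulated cells (0.18), a difference of 0.44. Lrp1, which encodes a receptor that takes up heme-hemopexin complexes, was higher in unstimulated (0.20 ± 0.010) and lower in stimulated cells (−0.05 ± 0.011), a difference of −0.25. With the ratios as deposited, these differences are smaller for Hamp and larger for Lrp1 by 0.23.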

How the results depend on the processing

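No paired analysis was possible because each group has 1 library and the labels carry no replicate numbers; for the same reason no library could be left out. With the ratios as deposited, the median ratio of the 10 genes in unstimulated cells was 0.016, the median difference between the states was −0.16, and the differences of Hmox1 (−0.16), Fth1 (−0.11), Ftl1 (−0.17) and Lcn2 (−0.096) reversed. These reversals follow from the unlike zero points of the 2 tables. The count of genes past 1.5-fold that were higher in stimulated cells in the wider list, 1 in the main analysis, was 0 with the ratios as deposited, 0 with centring on the median gene and 0 at a size of 2-fold. The count of lower genes there, 2, was 1 at 2-fold and 4 at an adjusted p under 0.05. At that p, 2 of the 10 genes were past 1.5-fold lower in stimulated cells, against 1 (Spic is the one added), and 14 of the wider list passed lower, against 9. The share of all genes at that p was not counted, so nothing is read from these rises. All other counts were within 1.5 times the main count under the alternatives named. Among the genes past 1.5-fold, Spic and Bmp2 had the fewest equivalent reads, and several genes that did not pass, such as Bmp6 and Heph, had fewer still. The spread between cultures was not measured for any gene.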
